A study of Homo sapiens with 18 samples.

Results

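The androgen response was measured in LNCaP cells whose FOXA1 was endogenous, wild type or mutated outside the forkhead. It rests on 8 of the 18 arrays of the series, those of 4 of its 9 constructs, chosen by sample title. LNCaP, an established human cell line from a prostate cancer metastasis, depends on androgen for growth. The 4 constructs were GFP with the control vector pGIPZ (GFP+pGIPZ, endogenous FOXA1), wild-type FOXA1 with the FOXA1 hairpin (WT+KD), the mutant G87R with the hairpin (87+KD) and the mutant L388M with the hairpin (388+KD). The remaining 5 constructs, each with the hairpin, carried GFP alone (GFP+KD) or the mutants D226N, M253K, FENG or F266S (226+KD, 253+KD, FENG+KD and 266+KD), where FENG is a name the labels leave undefined. Every line was starved of hormone for 3 days in 5% charcoal-stripped serum, then given 1 nM R1881 or ethanol, its vehicle, for 24 hours. R1881 is a synthetic androgen that is not readily metabolised. Each construct was arrayed once per treatment, giving 4 R1881 and 4 ethanol arrays here, and the error available is the spread of the response between constructs. No source says that the arrays came from separate cultures, so p-values measure only the spread between these arrays, which may be technical, and the labels name a single line per construct.

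Androgens act through a nuclear receptor that, once bound by hormone, binds DNA at paired AGAACA-like half-sites and recruits coactivators or corepressors. FOXA1 is a forkhead factor that opens closed chromatin, and in prostate cells it marks many of the sites that the receptor uses. In luminal prostate cells the receptor raises kallikrein proteases, lipid and secretory genes, and lowers another set of genes. The comparison in the series is between FOXA1 forms with and without hormone, and the 4 constructs described here keep endogenous FOXA1 without the hairpin or carry an inserted FOXA1 with an unmutated forkhead.

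Values below are log2 intensities after background correction and quantile normalization, and the 4 values of a treatment are always in the order GFP+pGIPZ, WT+KD, 87+KD, 388+KD. FOXA1, the target of the hairpin, was at 11.73, 10.68, 10.61 and 10.72 with R1881, against 11.93, 10.86, 10.89 and 10.96 with ethanol. It was therefore higher in GFP+pGIPZ than in the 3 hairpin lines under both treatments. The probe read 11.07 with R1881 and 11.16 with ethanol in GFP+KD cells, which carry no inserted FOXA1, so it showed no higher level in the lines with an insert. Whether it reads the inserted sequences is not given in the sources used here, and the amount of inserted FOXA1 was not measured. FOXA1 itself was lower with R1881 in each of the 4 lines but did not pass the test (-0.22 ± 0.08, adjusted p = 0.149, limma). It passed in 1 of 17 alternative fits (adjusted p = 0.0447, limma).

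Detected probes (detection p under 0.01) numbered 15855 to 17278 per array over the series, and mean raw intensities ran from 233.1 to 303.9. The luminal markers KRT8, KRT18, KLK3, FOXA1 and HOXB13 were detected on all 8 arrays. The basal markers KRT5 and KRT14 were undetected on all 8, as were PTPRC, CD3E, PECAM1, COL1A2 and DCN of the leukocyte, endothelial and fibroblast list and CHGA and SYP of the neuroendocrine list. From the other-cell lists VWF, CD68 and ENO2 were detected on all 8 and COL1A1, a fibroblast collagen, on 2 R1881 and 4 ethanol arrays, and of these VWF, an endothelial glycoprotein, was higher with R1881 (0.58 ± 0.09, adjusted p = 0.00566); its part in other results was not tested. The ethanol array of 87+KD stood apart in some genes. ALDOA, ATG4B and PSMC4 were at 10.22, 5.73 and 6.91 there, against lowest levels of 11.18, 7.12 and 8.53 on the other ethanol arrays. For ALDOA this holds for the probe used, whose mean R1881 minus ethanol difference was 0.74, against 0.13 for another of its probes. Counts are therefore given without 87+KD as well.

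Among 10916 genes detected on at least 2 of the 8 arrays, 514 (4.71%) were higher and 600 (5.5%) were lower with R1881 at an adjusted p under 0.05, 10.2% in all, in a limma fit that paired the treatments by construct. Of these 1114 genes, 1111 moved in the same direction in 4 of 4 constructs, but the paired fit itself favours genes whose 4 differences agree. In 894 of the 1114 the R1881 and ethanol arrays did not overlap. Such separation was seen in 1726 of all genes tested (15.8%), upward in 7.32% and downward in 8.49%. Of the genes that passed, 98 were at least 2-fold higher and 65 were at least 2-fold lower. The median response of all genes was -0.02 on the log2 scale and the median standard error was 0.10. Below, a response is the mean log2 difference of the 4 constructs, given ± its standard error from that fit (n = 4 pairs). The number of calls fell with each construct left out, to 342 higher and 404 lower without GFP+pGIPZ, 282 and 303 without WT+KD, 404 and 408 without 87+KD, and 271 and 302 without 388+KD.

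**Figure D1:**
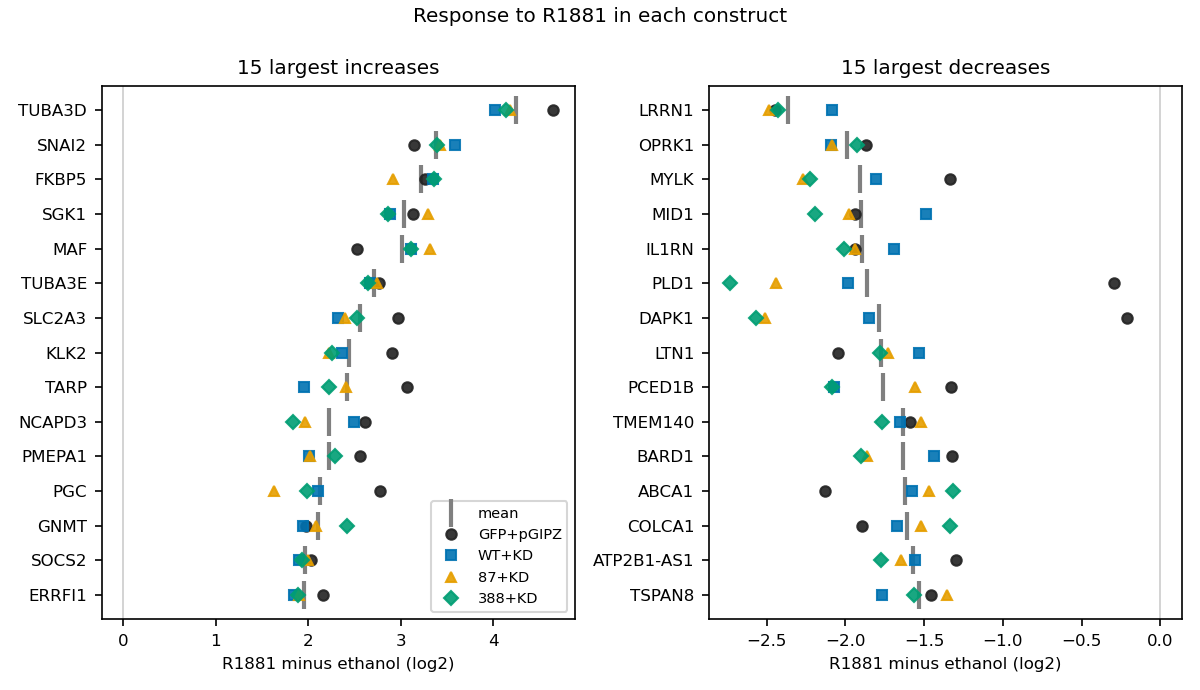
The response to R1881 (R1881 minus ethanol, log2 intensity) of the 15 genes with the largest increases (left) and the 15 with the largest decreases (right) among genes past the threshold. Each symbol is 1 construct (1 array per treatment) and each bar is the mean of the 4. Most genes hold the 4 symbols close together, whereas PLD1 and DAPK1 are near 0 in GFP+pGIPZ (-0.29 and -0.21), where both were at or near background. SNAI2, TUBA3E and SLC2A3 were undetected with ethanol and PLD1 with R1881, so their points are not measured on both sides. In GFP+pGIPZ, TUBA3D was also undetected with ethanol and DAPK1 with R1881.

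Kallikreins, secreted serine proteases that are the classic products of androgen-stimulated prostate cells, rose together. KLK2 was at 8.83, 8.60, 8.53 and 8.48 with R1881, against 5.93, 6.23, 6.30 and 6.22 with ethanol. The arrays did not overlap, and KLK2 was 5.41-fold higher with R1881 (log2 2.44 ± 0.13, adjusted p = 2.62e-05). KLK3 (prostate-specific antigen) was at 8.66, 8.60, 8.54 and 8.16 with R1881, against 7.08, 6.75, 6.83 and 6.84 with ethanol. Its difference was 1.61 ± 0.11, adjusted p = 0.000102, with every R1881 array above every ethanol array. KLK4 (0.54 ± 0.09, adjusted p = 0.00709) and KLK15 (0.58 ± 0.10, adjusted p = 0.00721) passed with smaller differences, and KLK4 was already at 11.18, 11.42, 11.47 and 11.57 with ethanol. TMPRSS2, a membrane serine protease, was higher by 1.63 ± 0.14, adjusted p = 0.000330, and its response in GFP+pGIPZ (2.13) was the largest of the 4. PGC, an aspartic protease precursor, was at 7.24, 6.62, 6.57 and 6.59 with R1881, against 4.46, 4.51, 4.95 and 4.61 with ethanol, and it was detected with ethanol on 1 array of 4.

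The promoters of KLK3 and KLK2 are shown because each holds, within 250 bases before the gene's start, a variant of the same 15-base element with an AGAACA-like half-site. They were taken from RefSeq (GRCh38.p14, plus strand, chr19:50854665-50854914 and chr19:50873189-50873438), with the element in capitals.
KLK3: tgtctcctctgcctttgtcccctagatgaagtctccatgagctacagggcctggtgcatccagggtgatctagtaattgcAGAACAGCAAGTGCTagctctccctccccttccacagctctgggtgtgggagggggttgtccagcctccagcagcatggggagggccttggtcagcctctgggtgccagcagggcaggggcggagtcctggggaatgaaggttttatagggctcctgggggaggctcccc
KLK2: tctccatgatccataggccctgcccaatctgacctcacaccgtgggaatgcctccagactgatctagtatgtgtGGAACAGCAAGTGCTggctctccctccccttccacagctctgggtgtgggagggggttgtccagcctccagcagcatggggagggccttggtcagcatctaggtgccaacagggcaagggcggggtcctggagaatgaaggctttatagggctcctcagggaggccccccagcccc
The element begins 170 bases before the start in KLK3 and 176 in KLK2. The KLK2 copy differs from the KLK3 copy by A1G, with positions counted from 1 at the element's 5′ end. At most 1 mismatch from the KLK3 element, it occurred on either strand in 3 of 8853 promoters of tested genes (0.0339%), those of FABP6, KLK2 and KLK3. The response of FABP6 is not given here, and a match describes the sequence only.

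SNAI2 (Slug), a zinc-finger repressor of epithelial genes, was at 7.28, 7.83, 7.68 and 7.87 with R1881, against 4.15, 4.25, 4.25 and 4.48 with ethanol. It was undetected on all 4 ethanol arrays and at least 7.15-fold higher with R1881 (adjusted p = 2.57e-06). MAF, a basic leucine zipper factor, was at 8.15, 9.53, 9.40 and 9.53 with R1881, against 5.62, 6.42, 6.09 and 6.41 with ethanol. The 8.09-fold increase (log2 3.02 ± 0.13, adjusted p = 1.47e-05) was smallest in GFP+pGIPZ. ZBTB16, a zinc-finger factor known as a target of several steroid receptors, was higher by 1.64 ± 0.09 with 4 responses between 1.59 and 1.74. FKBP5, an immunophilin co-chaperone of steroid receptors, was at 11.36, 11.34, 11.10 and 11.44 with R1881, against 8.10, 7.99, 8.18 and 8.08 with ethanol. Its difference of 3.22 ± 0.10, adjusted p = 2.57e-06 corresponds to 9.30-fold, and the lowest R1881 array lay above the highest ethanol array. ELL2 (1.70 ± 0.15) and EAF2 (1.81 ± 0.14), components of transcription elongation complexes, rose as well.

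SGK1, a serine/threonine kinase related to AKT, was at 8.76, 9.52, 9.66 and 9.74 with R1881, against 5.63, 6.65, 6.37 and 6.89 with ethanol (log2 3.04 ± 0.11, adjusted p = 3.49e-06). ERRFI1, a feedback inhibitor of the EGF receptor, was higher by 1.95 ± 0.09, adjusted p = 2.15e-05, and SOCS2, a suppressor of cytokine signalling, by 1.96 ± 0.09, adjusted p = 1.47e-05. Both had 4 responses that lay within 0.32 log2 units of each other or less. PMEPA1, which limits TGF-beta signalling through SMAD proteins, was at 9.47, 9.41, 9.42 and 9.76 with R1881, against 6.91, 7.40, 7.41 and 7.47 with ethanol. NCAPD3, a subunit of condensin II, was higher by 2.22 ± 0.14, adjusted p = 8.43e-05, GNMT, glycine N-methyltransferase, by 2.11 ± 0.11, adjusted p = 2.58e-05, and TARP, a transcript of the T-cell receptor gamma locus made in prostate cells, by 2.41 ± 0.17, adjusted p = 0.000111. By its brightest probe TUBA3D, an alpha-tubulin, had the largest increase, at 9.39, 9.51, 9.36 and 9.38 with R1881, against 4.74, 5.49, 5.18 and 5.24 with ethanol (19.0-fold, adjusted p = 2.57e-06). The dimmest detected signals on these ethanol arrays were 4.80, 4.82, 4.82 and 4.87, so TUBA3D was undetected in GFP+pGIPZ with ethanol. The 19.0-fold is thus set against levels near background. The second TUBA3D probe gave a response of 2.47, and without WT+KD that probe was the brighter one and the response was 2.44. TUBA3E and TUBA3C, near-identical relatives that were undetected on the 4 ethanol arrays, were at least 4.78-fold and 1.67-fold higher. Their probes may not separate these copies, so which member rose is uncertain.

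The largest decrease was that of LRRN1, a leucine-rich repeat membrane protein. It was at 5.96, 6.96, 6.81 and 6.89 with R1881, against 8.40, 9.05, 9.30 and 9.32 with ethanol. LRRN1 was lowered 5.15-fold (-2.36 ± 0.10, adjusted p = 1.47e-05), with all R1881 arrays below all ethanol arrays. OPRK1, the kappa opioid receptor, was at 7.76, 7.24, 7.50 and 7.37 with R1881, against 9.63, 9.33, 9.59 and 9.30 with ethanol (-1.99 ± 0.09, adjusted p = 1.75e-05). MID1, a microtubule-associated ubiquitin ligase (-1.90 ± 0.12, adjusted p = 8.43e-05), IL1RN, the antagonist of the interleukin 1 receptor (-1.89 ± 0.09, adjusted p = 2.21e-05), and LTN1, a ubiquitin ligase of ribosome quality control (-1.77 ± 0.11, adjusted p = 5.51e-05), were lower as well. MYLK, myosin light chain kinase, was at 4.99, 6.17, 6.10 and 6.40 with R1881, against 6.33, 7.98, 8.37 and 8.63 with ethanol, and the groups overlapped, its level being lowest in GFP+pGIPZ under both treatments. BARD1, the partner of BRCA1, was lower (-1.63 ± 0.12, adjusted p = 0.000170), and so were ABCA1, a cholesterol exporter (-1.62 ± 0.14, adjusted p = 0.000278), PCED1B (-1.76 ± 0.14), COLCA1 (-1.61 ± 0.11) and the noncoding RNA gene ATP2B1-AS1 (-1.57 ± 0.10).

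TSPAN8, a tetraspanin, was at 6.99, 7.72, 8.00 and 7.98 with R1881, against 8.44, 9.49, 9.35 and 9.55 with ethanol (-1.54 ± 0.10, adjusted p = 8.43e-05). TMEM140, a transmembrane protein gene, was at 6.01, 5.46, 5.53 and 5.37 with R1881, against 7.60, 7.12, 7.05 and 7.14 with ethanol (-1.63 ± 0.09, adjusted p = 3.56e-05). In both genes the R1881 arrays lay below every ethanol array. Their promoters are shown because each holds both motifs searched in the 250 bases before the start, the half-site AGAACA and the forkhead motif TGTTTAC. RefSeq gives them on GRCh38.p14 at chr12:71158000-71158249 (minus strand) and chr7:135147822-135148071 (plus strand), and the 2 motifs are in capitals.
TSPAN8: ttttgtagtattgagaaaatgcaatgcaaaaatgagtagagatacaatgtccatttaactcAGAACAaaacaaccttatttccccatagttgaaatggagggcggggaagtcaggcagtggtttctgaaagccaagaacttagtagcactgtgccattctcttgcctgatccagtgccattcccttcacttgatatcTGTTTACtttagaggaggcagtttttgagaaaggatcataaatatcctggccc
TMEM140: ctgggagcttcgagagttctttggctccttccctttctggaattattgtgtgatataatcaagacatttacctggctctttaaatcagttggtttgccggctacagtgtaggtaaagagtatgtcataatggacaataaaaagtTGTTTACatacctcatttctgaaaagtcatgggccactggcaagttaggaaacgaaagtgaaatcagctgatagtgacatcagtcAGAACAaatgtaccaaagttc
AGAACA occurred on either strand in 17.4% of 46 promoters of genes at least 2-fold lower, 6.41% of 78 promoters of genes at least 2-fold higher and 7.39% of 8853 promoters of all genes tested. TGTTTAC occurred in 10.9%, 2.56% and 1.89% of the same sets. The inverted repeat of that half-site with a 3-base spacer, which contains the half-site, was in none of these windows. The forkhead motif is not part of it. The gene sets were chosen by their response, and a match describes the sequence only.

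Gene lists written with earlier results of these data known place these genes in their pathways, and each count is read beside the 4.71% higher and 5.5% lower of all genes. Of 49 measured androgen-induced targets, 41 were higher (83.7%), none was lower, and the median response was 1.25 on the log2 scale, against -0.02 over all genes. The count stayed between 40 and 41 with any construct left out. Beside the genes above it includes SLC45A3 (prostein), a transporter-like membrane protein abundant in prostate epithelium (1.81 ± 0.11), NDRG1 (1.73 ± 0.12), the leukaemia inhibitory factor receptor LIFR (1.57 ± 0.14), the kinase CAMKK2 (1.05 ± 0.11) and HPGD, which inactivates prostaglandins and was at least 2.29-fold higher. Of 26 measured androgen-repressed genes, 19 were lower (73.1%), 2 were higher and the median was -0.898. The lower count was 16, 15, 18 and 16 without GFP+pGIPZ, WT+KD, 87+KD and 388+KD in turn. The 2 that were higher, UGT2B28 (0.41 ± 0.09, adjusted p = 0.0209) and TNFRSF10B, a death receptor (0.41 ± 0.09, adjusted p = 0.0240), lost the call without GFP+pGIPZ (adjusted p = 0.0696 and 0.0775), WT+KD (0.0666 and 0.0886) or 388+KD (0.0984 and 0.113). Both lists were written from textbook knowledge of prostate cells, LNCaP among them, and with earlier results of these data known. Their counts are therefore not independent evidence of direction. With genes undetected in 1 treatment set at their bound, the induced median was 1.2.

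**Figure D2:**
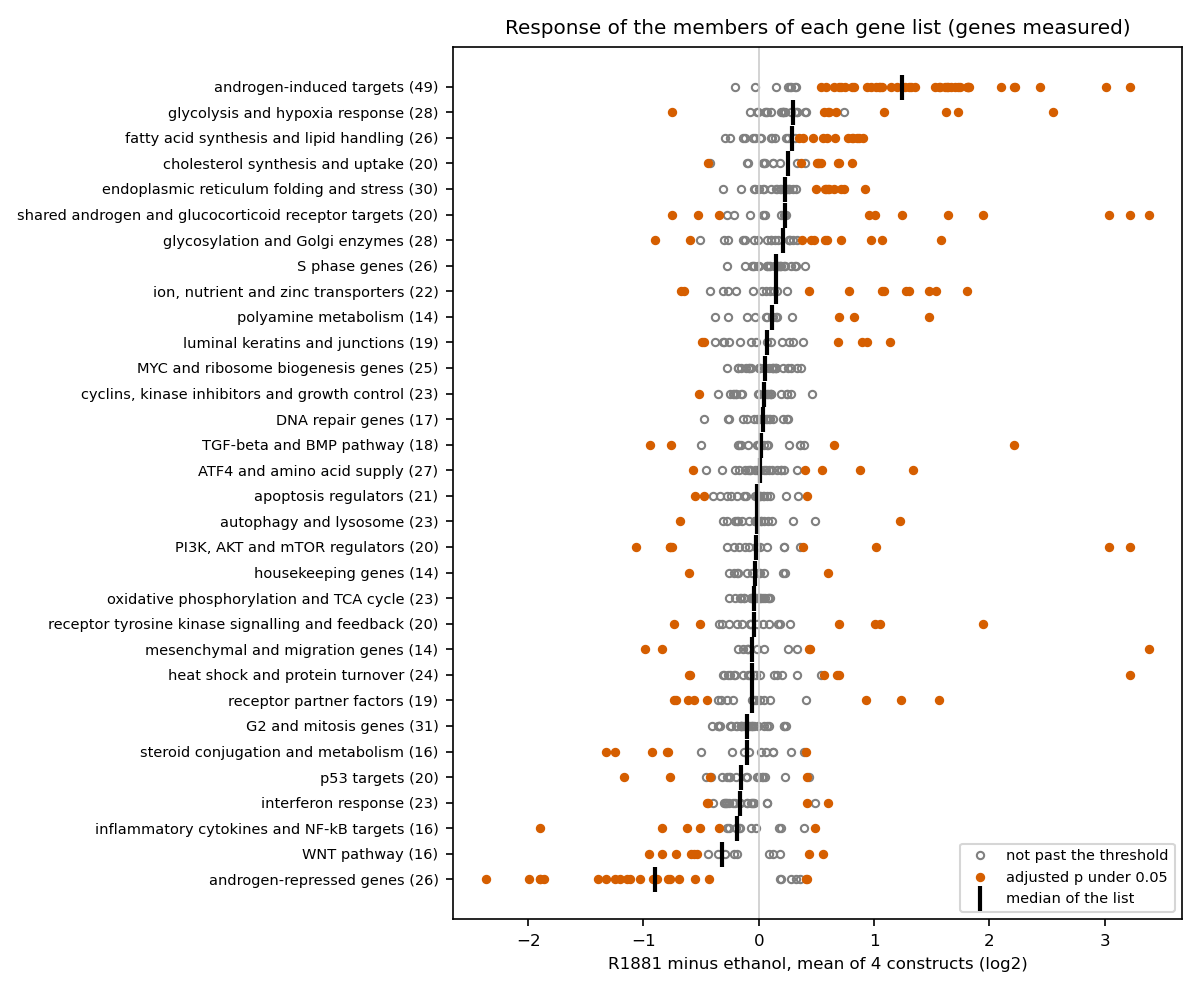
Mean response of the 4 constructs (R1881 minus ethanol, log2 intensity) for each measured gene of the lists with at least 14 measured members, ordered by the median, with the number measured in brackets. Filled points passed an adjusted p under 0.05, open points did not, and the bar is the list's median. The androgen-induced list (median 1.25) and the androgen-repressed list (median -0.898) stand at the ends, and the other medians lie between -0.322 and 0.296.

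In luminal prostate cells androgen is known to raise enzymes of lipid synthesis. In the list of fatty acid synthesis and lipid handling, 12 of 26 measured genes were higher, none was lower and the median was 0.286. They included FASN, fatty acid synthase, at 12.91, 12.88, 12.89 and 13.06 with R1881, against 11.94, 11.91, 12.13 and 12.17 with ethanol (0.90 ± 0.09, adjusted p = 0.000631), the elongases ELOVL5 (0.87 ± 0.10, adjusted p = 0.00138) and ELOVL7 (0.78 ± 0.11, adjusted p = 0.00293), the acyl-CoA binding protein DBI (0.85 ± 0.09, adjusted p = 0.00105) and ABHD3, a phospholipase (0.81 ± 0.09, adjusted p = 0.00119). ACACA, acetyl-CoA carboxylase, was higher by 0.56 ± 0.10 (adjusted p = 0.0106, and 0.0594 without WT+KD). The desaturase FADS2 was higher by 0.82 ± 0.16 (adjusted p = 0.0140, but 0.0713 without WT+KD and 0.0553 without 388+KD). The list's count was 8 without GFP+pGIPZ, 6 without WT+KD, 11 without 87+KD and 7 without 388+KD. In cholesterol synthesis and uptake 8 of 20 were higher and 1 was lower (0 with any construct left out), with a median of 0.257. IDI1, of the isoprenoid steps, was higher by 0.81 ± 0.10, adjusted p = 0.00177, and the sterol sensors SCAP by 0.70 ± 0.08, adjusted p = 0.00166 and INSIG1 by 0.68 ± 0.09, adjusted p = 0.00314. Here the count was 5 without GFP+pGIPZ, 4 without WT+KD, 6 without 87+KD and 3 without 388+KD.

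UGT2B enzymes couple steroids to glucuronic acid and AKR1C enzymes interconvert them. Of 16 measured genes of steroid conjugation and metabolism, 8 of them UGT2B or AKR1C genes, 5 were lower and 1 was higher, with a median of -0.106. UGT2B17, a glucuronosyltransferase that inactivates androgens, was at 10.12, 9.71, 10.05 and 9.63 with R1881, against 11.84, 10.95, 11.14 and 10.56 with ethanol (-1.24 ± 0.13, adjusted p = 0.000944). UGT2B15 differed more between constructs, with responses of -2.36, -1.85, -0.06 and -1.02, and its adjusted p of 0.0364 became 0.117 without GFP+pGIPZ, 0.144 without WT+KD and 0.0751 without 388+KD. UGT2B10 was lower (-0.79 ± 0.19, adjusted p = 0.0379, 0.0930 without GFP+pGIPZ and 0.143 without WT+KD). AKR1C3, which makes testosterone from androstenedione (-0.92 ± 0.11, adjusted p = 0.00151), and its relative AKR1C2 (-0.80 ± 0.11, adjusted p = 0.00305) were lower. UGT2B28 alone of the list was higher, as given above, and none of the 8 members outside the UGT2B and AKR1C families passed. The number lower was 3 without GFP+pGIPZ, 3 without WT+KD, 6 without 87+KD and 4 without 388+KD. The UGT2B and AKR1C genes are close copies, and their probes may read more than 1 of them.

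Secretory cells fold proteins in the endoplasmic reticulum and modify them in the Golgi. In endoplasmic reticulum folding and stress 9 of 30 genes were higher and none was lower. They were led by CREB3L4, a membrane-bound transcription factor found in prostate (0.92 ± 0.13, adjusted p = 0.00340), PDIA5, a protein disulphide isomerase (0.74 ± 0.11, adjusted p = 0.00387), and EDEM3, which trims mannose from misfolded glycoproteins (0.71 ± 0.12, adjusted p = 0.00797). HSPA5, the main chaperone of this compartment, did not pass (0.32 ± 0.11, adjusted p = 0.121). The count without each construct ran from 6 to 9. Among glycosylation and Golgi enzymes 9 of 28 were higher and 2 were lower. ST6GALNAC1, the sialyltransferase that makes the sialyl-Tn antigen, was at 5.94, 6.04, 5.90 and 5.83 with R1881, against 4.14, 4.24, 4.42 and 4.59 with ethanol. It was undetected on the 4 ethanol arrays and at least 2.14-fold higher with R1881 (adjusted p = 0.000162). UAP1, which makes UDP-N-acetylglucosamine, was higher by 0.97 ± 0.13, adjusted p = 0.00291 and CSGALNACT1, an enzyme of chondroitin sulphate, by 1.07 ± 0.10, adjusted p = 0.000429, whereas ST3GAL1, another sialyltransferase, was lower (-0.90 ± 0.11, adjusted p = 0.00147). Here the higher count was 6 without GFP+pGIPZ, 5 without WT+KD, 7 without 87+KD and 5 without 388+KD, and the lower count was 1 without GFP+pGIPZ, 87+KD or 388+KD.

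Of 14 polyamine genes 3 were higher and none was lower, with 3 higher without any one of the constructs as well. ODC1, ornithine decarboxylase, was at 12.51, 13.05, 13.09 and 13.13 with R1881, against 11.26, 11.46, 11.70 and 11.44 with ethanol (1.48 ± 0.10, adjusted p = 0.000115). SMS, spermine synthase, was higher by 0.82 ± 0.09, adjusted p = 0.000925, and SAT1, the acetyltransferase that starts polyamine export and breakdown, by 0.70 ± 0.10, adjusted p = 0.00397. Of transporters, 9 of 22 were higher and 2 were lower. The magnesium transporter SLC41A1 was higher by 1.54 ± 0.17, adjusted p = 0.00103, the calcium-activated potassium channel KCNMA1 by 1.28 ± 0.09, adjusted p = 0.000111, the zinc transporter SLC39A10 by 0.78 ± 0.13, adjusted p = 0.00706 and the exporter ABCC4 by 1.07 ± 0.12, adjusted p = 0.00115. SLC26A3, an anion exchanger, was undetected on every ethanol array and at least 1.94-fold higher (adjusted p = 0.000111), and ATP1B1, a subunit of the sodium pump, was lower (-0.68 ± 0.10, adjusted p = 0.00411). The higher count for transporters ran from 7 to 8 without each construct, and the lower count was 1 without GFP+pGIPZ, WT+KD or 87+KD.

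The glucose transporters SLC2A1 and SLC2A3 rose, and no gene of the respiratory chain list passed. In glycolysis and the hypoxia response 8 of 28 genes were higher and 1 was lower, with a median of 0.296 and 6 to 10 higher without each construct. SLC2A3, the neuronal-type glucose transporter GLUT3, was at 7.23, 6.52, 6.76 and 6.66 with R1881, against 4.26, 4.20, 4.36 and 4.13 with ethanol. It was undetected with ethanol and at least 3.91-fold higher with R1881 (adjusted p = 2.03e-05). SLC2A1, the widely expressed transporter GLUT1, was higher by 0.67 ± 0.10, adjusted p = 0.00375, ANKRD37 by 1.62 ± 0.09, adjusted p = 5.17e-05 and VEGFA, an angiogenic factor, by 1.09 ± 0.10, adjusted p = 0.000492. The peptide hormone gene ADM was the member that went down (-0.76 ± 0.10, adjusted p = 0.00243). None of 23 genes of oxidative phosphorylation and the TCA cycle passed in limma's fit, with responses from -0.258 to 0.0935. In amino acid supply 4 of 27 were higher, led by the transporter SLC43A1 (1.34 ± 0.13, adjusted p = 0.000500), and 1 was lower, SLC7A5 (-0.57 ± 0.12, adjusted p = 0.0239, with 0.106 without WT+KD and 0.102 without 388+KD). The amino acid count higher was 2 without GFP+pGIPZ, 1 without WT+KD, 5 without 87+KD and 2 without 388+KD.

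The proliferation lists held 1 gene past the threshold at 24 hours. They do not cover every gene of these processes, and BARD1, which was lower, and NCAPD3, which was higher, are outside them. None of 26 S phase genes, 31 G2 and mitosis genes, 25 MYC and ribosome biogenesis genes or 17 DNA repair genes was called by limma, and at an unadjusted p under 0.05 they numbered 4 of 26, 8 of 31, 4 of 25 and 3 of 17. In the oxidative phosphorylation list that number was 1 of 23, and among all genes tested it was 2774 of 10916. The medians were 0.149 for S phase and -0.102 for G2 and mitosis. By construct they were 0.326 for S phase and 0.132 for G2 and mitosis in GFP+pGIPZ, against -0.0231 to 0.0795 and -0.281 to -0.163 in the 3 lines with inserted FOXA1. The GFP+pGIPZ medians rest on 1 pair of arrays, list members are not replicates, and this contrast was not tested. Of cyclins, kinase inhibitors and growth control genes 1 of 23 was lower, RBL2, a relative of RB1 (-0.51 ± 0.11, adjusted p = 0.0209, with 0.0675 without GFP+pGIPZ, 0.0567 without 87+KD and 0.0690 without 388+KD). MYC itself was at 10.07, 10.55, 10.49 and 10.59 with R1881, against 10.69, 10.48, 10.50 and 10.65 with ethanol (-0.15 ± 0.13, adjusted p = 0.493). GAPDH (0.00 ± 0.10, adjusted p = 0.993) and ACTB (-0.11 ± 0.10, adjusted p = 0.550) did not pass either, while of 14 housekeeping genes IPO8, an importin, was lower (-0.60 ± 0.09, adjusted p = 0.00537) and B2M was higher (0.60 ± 0.14, adjusted p = 0.0333, with 0.104, 0.0909 and 0.0927 without GFP+pGIPZ, 87+KD and 388+KD).

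Of 19 measured partner factors of the receptor, 3 were higher and 5 were lower. SPDEF, an ETS factor of luminal prostate cells, was at 9.71, 9.55, 9.57 and 9.21 with R1881, against 7.89, 7.79, 8.04 and 8.07 with ethanol (1.56 ± 0.12, adjusted p = 0.000217), HES6, a cofactor of the receptor, was higher by 1.23 ± 0.09, adjusted p = 0.000115, and GRHL2, a grainyhead factor of epithelium, by 0.93 ± 0.15, adjusted p = 0.00670. GATA2, which with FOXA1 prepares receptor sites, was at 8.26, 8.24, 8.32 and 7.94 with R1881, against 8.81, 8.79, 9.32 and 8.78 with ethanol (-0.73 ± 0.11, adjusted p = 0.00429). The corepressors TLE1 (-0.72 ± 0.10, adjusted p = 0.00274) and CTBP1 (-0.62 ± 0.10, adjusted p = 0.00546) were also lower. HOXB13, a homeobox factor of prostate, did not pass (-0.33 ± 0.11, adjusted p = 0.0919). The number lower was 3 without GFP+pGIPZ, 3 without WT+KD, 4 without 87+KD and 4 without 388+KD. Among targets shared with the glucocorticoid receptor 8 of 20 were higher, with SNAI2, FKBP5, SGK1 and ERRFI1 in the lead and with TIPARP, an ADP-ribosyltransferase (1.25 ± 0.14, adjusted p = 0.00104), and 3 were lower, the largest decrease being that of PIK3R1, the regulatory subunit of PI3 kinase (-0.75 ± 0.11, adjusted p = 0.00356).

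In signalling, 4 of 20 regulators of PI3K, AKT and mTOR were higher and 4 were lower. Besides SGK1 and FKBP5, INPP4B, a phosphatase of the pathway, was higher (1.02 ± 0.13, adjusted p = 0.00199). DEPTOR, an inhibitor of mTOR, was lower (-1.06 ± 0.12, adjusted p = 0.000985), as were PIK3R3 (-0.77 ± 0.14, adjusted p = 0.00993) and SESN1, a stress-induced inhibitor of mTORC1 (-0.77 ± 0.12, adjusted p = 0.00525). Of receptor tyrosine kinase genes 4 of 20 were higher, among them the receptor FGFR3 (1.05 ± 0.10, adjusted p = 0.000616) and the adaptor IRS2 (1.01 ± 0.11, adjusted p = 0.00104), and 2 were lower, 1 of them without GFP+pGIPZ, WT+KD or 388+KD. For the TGF-beta and BMP pathway, PMEPA1 and the receptor BMPR1B (0.65 ± 0.10, adjusted p = 0.00546) were higher, and the decoy receptor BAMBI (-0.76 ± 0.09, adjusted p = 0.00161) and the target ID3 (-0.94 ± 0.15, adjusted p = 0.00700) were lower, out of 18. The WNT list had 6 of 16 lower, with a median of -0.322. WNT5A, a ligand (-0.84 ± 0.14, adjusted p = 0.00673), and LEF1, a nuclear effector (-0.54 ± 0.09, adjusted p = 0.00674), were lower. RNF43, a ligase that removes WNT receptors, was undetected on all R1881 arrays and at least 1.63-fold lower (adjusted p = 0.0118, and 0.0530 without 388+KD). Without each construct 4 to 5 WNT genes were lower, and the 2 that were higher were not called without GFP+pGIPZ, WT+KD or 388+KD.

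Of 16 inflammatory genes 5 were lower and 1 was higher, with a median of -0.186. After IL1RN, the largest decrease was that of the chemokine CCL20, at 7.84, 9.20, 9.26 and 9.77 with R1881, against 8.49, 10.21, 10.01 and 10.71 with ethanol (-0.84 ± 0.10, adjusted p = 0.00147), whose groups overlapped. CCL2, a monocyte chemokine, was lower (-0.62 ± 0.12, adjusted p = 0.0144, 0.0553 without 388+KD). The number lower was 4 without GFP+pGIPZ, 3 without WT+KD, 3 without 87+KD and 2 without 388+KD. Of 23 interferon genes 2 were higher and 2 were lower, and with 1 construct left out 0 or 1 was called in each direction, 0 in both without 388+KD. Of 20 p53 targets 3 were lower, with TP53INP1 first (-1.17 ± 0.09, adjusted p = 0.000217), and 1 was higher, TNFRSF10B, whose call is described above. Among apoptosis regulators, autophagy and lysosome genes, and heat shock and protein turnover genes, 1 of 21, 1 of 23 and 4 of 24 were higher, and 2, 1 and 2 were lower. With a construct left out, 0 to 1 apoptosis regulators were higher and 0 to 1 lower. For autophagy and lysosome genes it was 1 to 2 higher and 0 to 1 lower, and for heat shock and protein turnover 3 to 4 higher and 1 to 2 lower. WIPI1, an autophagy protein, was the largest of these beside FKBP5 (1.23 ± 0.12, adjusted p = 0.000500). In the mesenchymal and migration list 3 of 14 were higher, led by SNAI2, and 2 were lower, with CALD1, caldesmon, first (-0.98 ± 0.10, adjusted p = 0.000689). Without WT+KD, 87+KD or 388+KD only SNAI2 remained among the higher.

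Of 19 genes of the luminal keratin and junction list 4 were higher, namely KRT8, KRT18, KRT19 and CLDN8, and 2 were lower. KRT8, the main luminal type II keratin, was at 10.51, 10.68, 10.56 and 10.44 with R1881, against 9.40, 9.40, 10.01 and 9.64 with ethanol (0.94 ± 0.13, adjusted p = 0.00314). KRT19 was higher by 0.69 ± 0.11, adjusted p = 0.00538 and the tight junction gene CLDN8 by 0.89 ± 0.17, adjusted p = 0.0138, with 0.0504 without WT+KD. KRT18, the partner of KRT8, was at 7.99, 8.12, 7.77 and 8.10 with R1881, against 7.48, 7.28, 5.65 and 7.00 with ethanol. Its response was 1.14 ± 0.23, adjusted p = 0.0167, and 0.81 (adjusted p = 0.0111) without 87+KD, whose ethanol array held the lowest level. A second KRT18 probe gave 0.46. The call was lost without WT+KD (0.0507) or 388+KD (0.0541), and without WT+KD 2 members of the list were higher, while the lower count was 1, 0, 1 and 0 without each construct in turn.

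Without the pairing by construct some of these counts changed by over 1.5 times. The number higher was 1 rather than 3 for partner factors, 5 rather than 9 for glycosylation, 1 rather than 3 for mesenchymal genes, 2 rather than 4 for keratins and junctions, 0 rather than 2 for the WNT list, 1 rather than 2 for androgen-repressed genes, 1 rather than 2 for neuroendocrine genes, 0 rather than 1 for the markers of other cell types and 2 rather than 1 for p53 targets. The number lower was 3 rather than 6 for the WNT list, 2 rather than 5 for inflammatory genes, 3 rather than 5 for steroid metabolism, 2 rather than 4 for PI3K regulators, 1 rather than 3 for targets shared with the glucocorticoid receptor and 0 rather than 2 for transporters. It was also 0 rather than 2 for keratins and junctions, 1 rather than 2 for the TGF-beta list, 1 rather than 2 for interferon genes and 0 rather than 1 for autophagy, while the single higher gene of the steroid and inflammatory lists was not called. Of 138 named responses 22 lost the call (adjusted p 0.0565 to 0.616, limma) and 0 gained it, those lost being AKR1C2, ATP1B1, BAMBI, CCL2, CCL20, COL5A2, DAPK1, DEPTOR, GRHL2, HES6, KRT18, KRT19, LEF1, PIK3R1, TLE1, TRIM49D1, TRIM49D2, TRPM8, UGT2B10, UGT2B28, VWF and WNT5A.

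The 4 constructs were then compared with each other. Across all tested genes the response of a construct correlated with the mean of the other 3 at r = 0.624 for GFP+pGIPZ, 0.685 for WT+KD, 0.575 for 87+KD and 0.671 for 388+KD, over genes, which are not independent replicates. For genes that passed and were at least 2-fold higher, the median response was 1.58 in GFP+pGIPZ and 1.25 to 1.32 in the other 3. For those at least 2-fold lower it was -1.33 in GFP+pGIPZ, -1.24 in WT+KD, -1.34 in 87+KD and -1.24 in 388+KD. Both sets were chosen by the mean of these same 4 responses, so a gene carried by 1 construct can enter them. A limma fit on the 4 differences tested WT+KD, 87+KD and 388+KD against the lone GFP+pGIPZ pair, which is assumed to vary like the others. That arm is 1 pair with no spread of its own, so its calls describe these arrays and not FOXA1 states. It called 0 genes with a larger response in the inserted lines and 3 (0.0275%) with a smaller one, while 266 and 403 genes reached an unadjusted p under 0.05.

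These 3 genes were TRIM48, TRIM51 and GRM5P1. TRIM48 was at 8.46, 8.63, 8.84 and 8.64 with R1881, against 4.92, 8.25, 8.37 and 7.96 with ethanol. TRIM51 was at 10.21, 10.57, 10.52 and 10.36 with R1881, against 7.10, 10.13, 9.97 and 10.08 with ethanol. GRM5P1, a pseudogene, was at 8.11, 8.78, 8.64 and 8.62 with R1881, against 5.03, 8.07, 8.19 and 8.00 with ethanol. In each the R1881 levels were close in all 4 lines, and the GFP+pGIPZ ethanol array alone was low. TRPM8, a cold-sensing cation channel known as an androgen-induced gene, had the same form at 7.75, 8.71, 9.26 and 9.16 with R1881, against 4.96, 8.14, 8.34 and 8.23 with ethanol, with responses of 2.79, 0.57, 0.91 and 0.93. Its mean response was 1.30 ± 0.32, adjusted p = 0.0377, and 0.0550, 0.0604 and 0.0716 without WT+KD, 87+KD and 388+KD. TRIM49D1 and TRIM49D2 had responses of 3.28, 0.70, 1.70 and 1.00 and of 3.14, 0.65, 1.49 and 0.84, and lost the call without 87+KD (0.0624 and 0.0755). TRIM48, TRIM51 and TRIM49 genes are close copies that probes may not separate. No such call was made without WT+KD or without 87+KD, and without 388+KD the fit gave 1 higher and 9 lower.

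**Figure D3:**
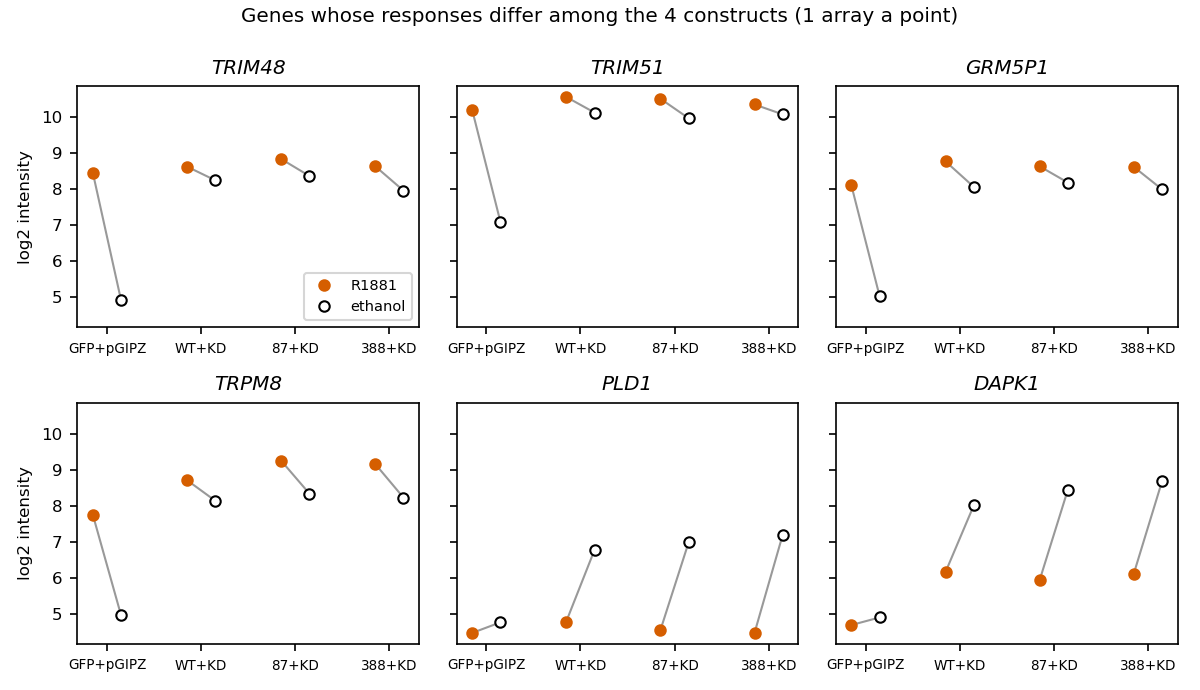
Log2 intensity of 6 genes in each of the 4 constructs, with R1881 (filled) left of ethanol (open) and a line joining the 2 arrays of a construct. The GFP+pGIPZ ethanol array is low for TRIM48 (4.92), TRIM51, GRM5P1 and TRPM8, while PLD1 and DAPK1 start low in GFP+pGIPZ and fall with R1881 in the 3 lines with inserted FOXA1. In GFP+pGIPZ, PLD1 and DAPK1 were at or near background under both treatments.

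The opposite form was seen in PLD1 and DAPK1, which were high with ethanol in the inserted lines and low in GFP+pGIPZ. PLD1, phospholipase D1, was at 4.47, 4.79, 4.55 and 4.47 with R1881, against 4.76, 6.77, 6.99 and 7.20 with ethanol. It was undetected on all 4 R1881 arrays and on the GFP+pGIPZ ethanol array, and over the 4 lines was at least 2.94-fold lower with R1881 (adjusted p = 0.0114, and 0.0593 without WT+KD). DAPK1, a calmodulin-regulated death kinase, was at 4.69, 6.16, 5.94 and 6.12 with R1881, against 4.90, 8.01, 8.45 and 8.69 with ethanol. In GFP+pGIPZ DAPK1 was undetected with R1881 and close to the dimmest detected signal (4.80) with ethanol, so a fall there could not be measured. Its mean response of -1.78 ± 0.34, adjusted p = 0.0142 became -2.31 without GFP+pGIPZ, and the call was lost without WT+KD (0.0678) or 388+KD (0.0553). Other genes with widely spread responses were PEG3, an imprinted zinc-finger gene (-1.99, -0.46, -0.90 and -1.23), COL5A2, a fibrillar collagen (-2.03, -0.91, -1.17 and -0.78), and PRAG1 (1.94, 0.74, 1.17 and 0.72), in each of which GFP+pGIPZ moved furthest.

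Finally the response was set against that of the 5 other constructs, in a limma fit on the 9 differences over 11589 genes. It called 1 gene with a higher response in the 4 lines with endogenous, wild-type, G87R or L388M FOXA1 (0.00863%) and 3 with a lower one (0.0259%), 0.0345% in all, with 291 and 268 at an unadjusted p under 0.05. The higher one was GLYATL2, a glycine acyltransferase of lipid metabolism. GLYATL2 was at 7.98, 7.90, 7.76 and 7.57 with R1881, against 6.59, 6.57, 6.71 and 6.90 with ethanol in these 4 lines. In GFP+KD, 226+KD, 253+KD, FENG+KD and 266+KD it was at 8.65, 7.71, 8.56, 8.38 and 7.94 with R1881, against 8.70, 7.75, 8.48, 8.39 and 8.20 with ethanol. It rose with R1881 in the first set (1.11 ± 0.13, adjusted p = 0.00146), whose ethanol level lay below all 5 others, and the difference in response was 1.17 ± 0.16, adjusted p = 0.0405. Its promoter holds 1 half-site, on the opposite strand as TGTTCT, and is shown from RefSeq (GRCh38.p14, chr11:58844705-58844954, minus strand) with that match in capitals.
GLYATL2: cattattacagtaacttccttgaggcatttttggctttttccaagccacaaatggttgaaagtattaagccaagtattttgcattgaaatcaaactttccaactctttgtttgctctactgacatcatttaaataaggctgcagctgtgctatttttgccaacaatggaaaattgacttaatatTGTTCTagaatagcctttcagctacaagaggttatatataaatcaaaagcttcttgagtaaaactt
The match begins 66 bases before the start, and no TGTTTAC lies in this window.

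The other 3 calls, KRT16, KRT16P2 and KRTAP13-2, entered the fit through the 5 other constructs, where they were high, and were at or near background in the 4 lines. Their differences are therefore not measured on both sides, and without a detection filter none of the 4 genes was called. KRT16 is a keratin of stressed or stratified epithelium. KRT16 was at 4.23, 4.35, 4.32 and 4.84 with R1881, against 4.46, 4.50, 4.58 and 4.37 with ethanol, in the 4 lines described here, and it was undetected on all 8 arrays. In the 5 others it was at 8.51, 5.40, 7.12, 6.79 and 6.53 with R1881, against 6.41, 4.32, 5.08, 4.63 and 5.09 with ethanol. KRT16P2, a pseudogene of KRT16 whose probe may read the parent, averaged 4.84 ± 0.57 with R1881 and 4.39 ± 0.11 with ethanol in the 4 lines (SD, n = 4), and 8.11 ± 1.02 with R1881 and 5.78 ± 1.03 with ethanol in the 5 others (SD, n = 5). It was detected on 1 of the 8 arrays of the 4 lines, and on 9 of the 10 of the others. KRTAP13-2, a keratin-associated protein, was at 4.30, 4.54, 4.67 and 5.14 with R1881, against 4.20, 4.22, 4.22 and 4.25 with ethanol, in the 4 lines, and at 8.56, 6.25, 7.96, 7.31 and 6.73 with R1881, against 4.42, 4.18, 4.34, 4.22 and 4.23 with ethanol in the 5 others. It was undetected on every ethanol array of the series, and detected with R1881 on 1 of 4 and 5 of 5 arrays. The 4 calls of this comparison do not stand when constructs are left out: none was made without GFP+pGIPZ, WT+KD or 87+KD, or without GFP+KD, FENG+KD or 266+KD, and without FENG+KD, 253+KD and 87+KD together there was none either. Without 388+KD the fit called 1 higher and 2 lower, without 226+KD 1 and 3, and without 253+KD 4 and 3. The 1 higher gene without 226+KD was not GLYATL2, which lost its call there.

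**Figure D4:**
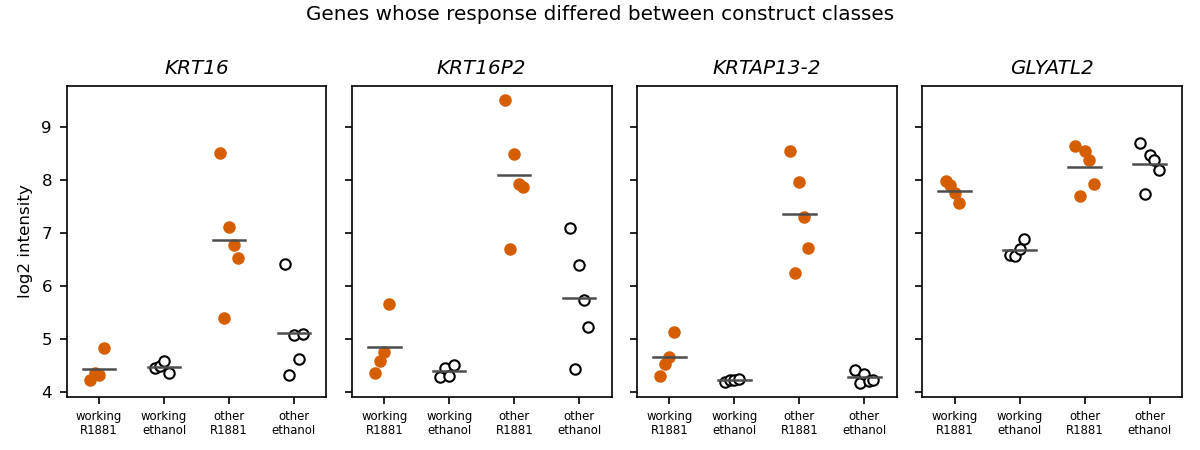
Log2 intensity of the 4 genes called for a difference in response, in the 4 constructs described here ("working") and the 5 others ("other"), with R1881 (filled) left of ethanol (open). Each point is 1 array and each bar the mean. KRT16, KRT16P2 and KRTAP13-2 are higher with R1881 in the 5 others and at or near background in the 4 lines. GLYATL2 is higher with R1881 in the 4 lines, with a lower ethanol level (mean 6.69) than in the 5 others (8.30). None of the 4 genes was called without a detection filter.

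Genes chosen in the GFP+pGIPZ pair alone give the size of the response in the 8 other lines without using their values for the choice. At least 2-fold higher with R1881 in GFP+pGIPZ were 145 genes, and 90 were at least 2-fold lower. The median response of the 145 was 1.07, 0.993 and 1.01 in WT+KD, 87+KD and 388+KD, and 0.750, 0.795, 0.545, 0.754 and 0.719 in GFP+KD, 226+KD, 253+KD, FENG+KD and 266+KD. The 90 had medians of -0.943, -0.965 and -1.03 in the first 3 lines and -0.780, -0.751, -0.675, -0.670 and -0.660 in the other 5. On both sides the 3 lines lay further from 0 than each of the 5. Of the 145, 142, 140 and 145 kept the direction in WT+KD, 87+KD and 388+KD, and 140, 138, 111, 130 and 141 in GFP+KD, 226+KD, 253+KD, FENG+KD and 266+KD. Of the 90, 87, 80 and 89 did in the 3 lines and 85, 87, 69, 81 and 80 in the 5, so these counts overlapped. All 8 lines carry the hairpin, which GFP+pGIPZ lacks. Each line has 1 array per treatment, 253+KD kept the direction in the fewest genes, and the 87+KD ethanol array stood apart in some genes. These medians are therefore a description, with no test.

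**Figure D5:**
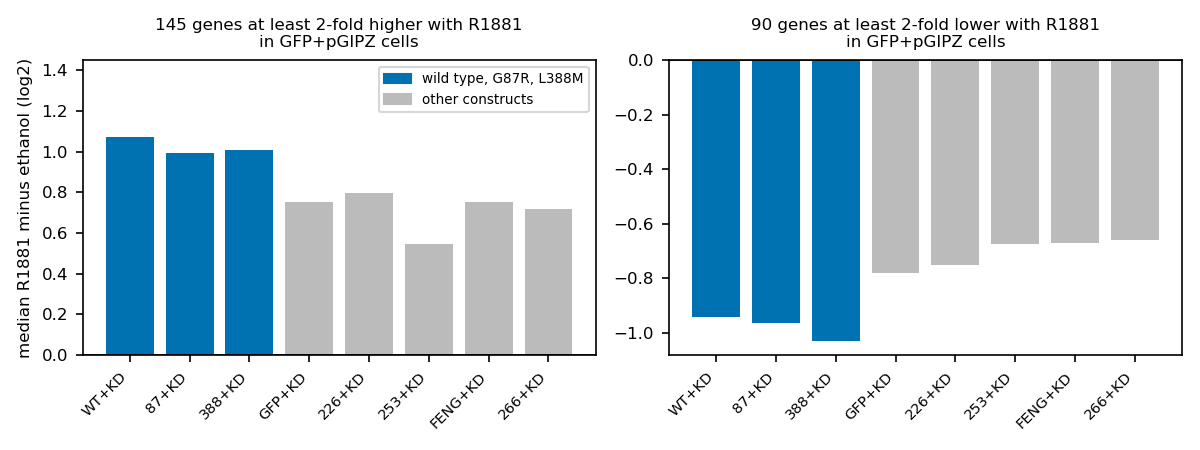
Median response to R1881 (R1881 minus ethanol, log2 intensity) of genes at least 2-fold higher (145, left) or lower (90, right) in the GFP+pGIPZ pair, in each of the 8 other lines. Bars of the lines with wild-type, G87R or L388M FOXA1 reach 0.993 to 1.07 on the left, against 0.545 to 0.795 for the others.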

How the data were processed

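RNA of LNCaP lines was hybridised to Illumina HumanHT-12 V4 arrays. The authors deposited raw probe intensities with a detection p-value per probe and array, per the file headers, and a second table of processed intensities. The submitters' processing notes list GenomeStudio, without a version. The processed table had a median of 5.2 on every array, a minimum of -15.4 and the rank order of the raw values. How it was scaled is not stated, and the raw table was used, with the processed one as an alternative. The raw minimum was 68.4, and 0 columns belonged to other samples.

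Intensities of all 18 arrays were background-corrected from detection p-values, quantile-normalized and set on the log2 scale with neqc (limma 3.58.1, offset 16, R 4.3.3). Of 47303 probes, 30102 had 1 gene symbol, 8 several and 17193 none, and 99.93% of symbols were matched to RefSeq GRCh38.p14. Probes with a detection p under 0.01 on at least 2 arrays were kept, 18523 over 8 arrays and 20117 over 18, and the brightest probe stood for a gene (10916 and 11589 genes). limma fitted construct and treatment on the 8 arrays, with Benjamini-Hochberg adjustment at 0.05. Differences between construct sets were fitted on each construct's R1881 minus ethanol. The construct pairs the arrays by their labels, and same-construct deviations correlated at 0.501, 0.0997, 0.045 and 0.18, against -0.394 to 0.2 between different constructs. A gene undetected on all arrays of 1 treatment has only a bound, the dimmest detected signal or its own, and its fold is written "at least". The scripts were tested on simulated data.

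Named genes were the 15 largest increases and decreases, a fixed panel, the leading members of each list with further members by role, genes differing between construct sets and those with the widest responses. The members and lists were chosen with earlier results of these data known. Alternatives covered normalization, offset, detection filter, probe choice, the block, the arrays fitted, array weights (statmod 1.5.0), the prior and each construct left out. No slide or scan date was used. The number of arrays limits the precision.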

Additional observations from a re-analysis of the deposited data

Results flagged for a closer look

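In 33 of 276 sets of 4 arrays (genes named above, 1 treatment each), 1 array lay further from its nearest neighbour than Dixon's 95% limit allows. Chance flags about 1 in 20 sets chosen without regard to their values. Some genes here were named because their responses differed between constructs, and the sets of a gene under R1881 and ethanol share their lines. The share flagged is therefore not a test against chance. Of the 33 arrays flagged, 25 were GFP+pGIPZ arrays. Log2 intensities on the GFP+pGIPZ R1881 array were apart for BAMBI (9.64), CAMKK2 (6.22), CTBP1 (7.99), DAPK1 (4.69), FOXA1 (11.73), GRHL2 (8.29), HES6 (11.59), HPGD (6.49), KRT19 (5.99), LRRN1 (5.96), MAF (8.15), ODC1 (12.51), PGC (7.24) and SOCS2 (9.29). On the GFP+pGIPZ ethanol array they were apart for ATP1B1 (10.61), BAMBI (10.26), FOXA1 (11.93), GRM5P1 (5.03), HES6 (10.31), LTN1 (10.80), PMEPA1 (6.91), TRIM48 (4.92), TRIM51 (7.10), TRPM8 (4.96) and VWF (7.00). The 87+KD R1881 array was apart for ADM (7.42) and the 87+KD ethanol array for ACACA (10.48), CTBP1 (9.07) and GATA2 (9.32). The 388+KD R1881 array was apart for FASN (13.06) and SLC2A1 (9.16) and the 388+KD ethanol array for ATP2B1-AS1 (8.49) and DBI (11.56). GFP+pGIPZ is also the one line without the hairpin or an inserted FOXA1, so line and array cannot be told apart.

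In limma's test of the difference itself, the response was higher in the 4 lines than in the 5 others for GLYATL2 (1.17 log2) and lower for KRT16 (-1.80), KRT16P2 (-1.87) and KRTAP13-2 (-2.64). The 3 keratin genes were at or near background in the 4 lines, so these fitted values are not measured on both sides. Against the lone GFP+pGIPZ pair, which has no spread of its own, the 3 inserted lines had a lower response for GRM5P1 (-2.48), TRIM48 (-3.03) and TRIM51 (-2.69).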

How the results depend on the processing

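Without the replicate block, that is without pairing by construct, 406 and 443 genes were higher and lower with R1881, against 514 and 600 with it, and 383 and 329 when the 87+KD ethanol array was also left out. Leaving out each construct gave 271 to 404 higher and 302 to 408 lower. With treatment nested in construct class over all 18 arrays it was 375 and 396. The other alternatives kept both counts within 1.5 times. Against the 5 other constructs, no gene was called in either direction (0 and 0) without a detection filter, with the mean of all kept probes, with a trended robust prior, or without FENG+KD, 253+KD and 87+KD, a choice made after seeing the data. With offset 50 it was 3 and 1, without FENG+KD and 253+KD 1 and 1, and with median scaling 1 and 3. In the last 2 of these fits the 1 higher gene was not GLYATL2. Leaving out 1 construct gave 0 to 4 higher and 0 to 3 lower. Between the inserted lines and the GFP+pGIPZ pair the count lower was 9 with median scaling, which moved the median of all genes from -0.0486 to -0.228, and 0 without the filter. Leaving out 1 inserted line gave 0 to 1 higher and 0 to 9 lower. The causes were not tested.

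The sign turned for ACTB over all 18 arrays (0.017). With each construct left out in turn the response ran from -0.0526 to 0.0622 for GAPDH, -0.228 to 0.00159 for MYC and -0.0792 to 0.219 for CD68, turning without GFP+pGIPZ or 388+KD (-0.037), without GFP+pGIPZ, and without 87+KD. ACTB, GAPDH and MYC did not pass in any alternative. FOXA1 passed in 1 of 17 alternatives (adjusted p = 0.0447, limma) and HOXB13 in 2 of 17 (lowest adjusted p = 0.0354), both as lower with R1881. CD68 passed in both fits over all 18 arrays, where another of its probes was the brightest (0.641 in the nested fit). Single arrays per line, quantile normalization and the array background limit what can be read, above all for genes undetected in 1 treatment.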
